A study of Mus musculus with 9 samples.

Results

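The genes described here are 31 members of the heart fibroblast signature of the mouse, those left once a few named gene families were taken out. The study defined 42 such genes (enriched heart fibroblast, or eHF, genes) on arrays of fibroblasts from several organs, samples other than the ones sequenced here, and the 11 set aside here are Tbx20 and genes of collagen, integrin, guanylate cyclase, metalloproteinase and interferon families. Some of the 31, among them Oas1f, Tgtp2, Phf11b and Serpina3n, belong to families too and stayed in because the list was taken as given. Of the 31 symbols, 29 were matched to a row among the 38924 genes of the count table, and Csprs and Gm10824 were not. RNA was sequenced from 9 libraries of primary cardiac fibroblasts, with 3 of control, 3 of Gata4 KD and 3 of Tbx20 KD cells. All cells, control included, came from mice of 8 to 10 weeks on a C57BL/6 background that carry a Rosa Cas9-EGFP allele, so the nuclease was present in every group and only the guide RNAs differed. The cells were grown for 3 days, sorted as CD45-CD31-CD90+, replated, and 6 days later, at 80 to 90% confluency, transfected through lipid with 2 guides against Gata4, 2 guides against Tbx20 or scrambled guides. Neither the share of edited cells nor the animals behind each library are given in the labels. The study calls the 3 libraries of a condition biological replicates, without saying what separates them. In bulk RNA of this kind, fewer cells that express a gene and less RNA per cell cannot be told apart.

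Fibroblasts of the heart make and remodel the collagen and elastic matrix around the muscle cells, and carry transcription factors of cardiac development, among them Gata4 and Tbx20, into adult life. The 31 genes encode proteins of several kinds. Frzb is a secreted decoy that binds Wnt ligands, Apcdd1 a membrane-bound Wnt inhibitor, and Mfap4 a glycoprotein of elastic microfibrils. Hsd11b1 is the enzyme that regenerates active glucocorticoid from its inactive keto form inside cells, with cofactor supplied by H6pd. Others are a lipid transporter (Mfsd2a), the succinate receptor (Sucnr1), a tyrosine kinase of the Tec family (Bmx), protease inhibitors, and genes that respond to interferon.

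The guides that separate the groups are shown because every comparison rests on them. They are given 5′ to 3′ in lower case, followed in capitals by the bases that lie next to the site in the transcript sequence, where the Cas9 used here needs the motif NGG.
Gata4_sgRNA1: cagagagtgtgtcaattgtgGGG
Gata4_sgRNA3: gcaggactgggctgtcgaagGGG
Tbx20_sgRNA2: caaattccatgaactgggcaCGG
Tbx20_sgRNA3: gagctgctcgccagtaaaggGGG
On GRCm38 the Gata4 sites lie at chr14:63204711-63204730 on the minus strand and chr14:63240581-63240600 on the plus strand, and the Tbx20 sites at chr9:24770708-24770727 on the minus strand and chr9:24765732-24765751 on the plus strand. All 4 sites are in coding exons of their target. An exact match to any of the 4 guides occurred in 0 transcripts of the 29 members.

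Total counts per library were 31214828 to 41950397, with a median of 36270725. Levels are given as CPM, a gene's counts scaled to a library total of 1000000 with TMM factors over all 9 libraries. The target Gata4 was at 164, 156 and 166 CPM in control libraries a, b and c, and at 53.7, 47.2 and 65.2 CPM in Gata4 KD. By edgeR's quasi-likelihood test it fell by 1.55 on the log2 scale (SE 0.12), with an adjusted p of 0.00272. Tbx20 was at 1000, 1290 and 714 CPM in control and at 321, 427 and 429 CPM in Tbx20 KD. The log2 difference was -1.35 (SE 0.21), and although no library overlapped, its adjusted p of 0.748 did not pass 0.05. Of 14 fibroblast markers, 13 had a mean of at least 1 CPM in control, but their levels differed widely. Col1a1 was at 2700 to 4340 CPM, Dcn at 93.8 to 200 CPM and Thy1, which encodes CD90, at 75.1 to 110 CPM. Lum was far lower, at 0.528 to 4.02 CPM. Ptprc, which encodes CD45, was at 1.64 to 3.14 CPM, and Pecam1, which encodes CD31, at 3.05 to 9.31 CPM. The Schwann cell factor Sox10 was at 0 in 7 of 9 libraries. Every library held both Xist (298 to 506 CPM) and the Y-linked Ddx3y (35.7 to 61.6 CPM), although the study's methods name male mice. Between Gata4 KD and Tbx20 KD, Xist differed by 0.40 on the log2 scale (SE 0.14, adjusted p 0.204 in edgeR). The members on chromosome X are Rhox5, Bmx and Gpm6b, and the part of this in their values was not tested.

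The 29 genes spanned a wide range of levels in cultured control cells. Mean CPM was above 100 for 3 members, between 10 and 100 for 12, between 1 and 10 for 7 and below 1 for 7. Per kilobase of exon sequence, the scale on which levels of different genes can be compared, Tgtp2, an interferon-inducible GTPase, was highest at 161 ± 28.4 CPM per kilobase (SD, n = 3). It was followed by Frzb at 96.1 ± 24.6 and Phf11b, a PHD finger protein, at 71.9 ± 15.7 CPM per kilobase. A step below stood the homeobox gene Rhox5 (24.1 ± 0.794), the purine nucleoside phosphorylase Pnp2 (21.9 ± 4.56), Fndc1, a protein with fibronectin type III domains (17.4 ± 4.72), Hsd11b1 (15.7 ± 1.05) and the membrane proteolipid Gpm6b (9.24 ± 4.80). The lowest control library of Tgtp2 lay above the highest of Frzb, Frzb and Phf11b overlapped, and the lowest of Phf11b lay above all that follow. From Rhox5 to Hsd11b1 the means of neighbours differed by less than the larger of their SDs, so these neighbours are not resolved. Further apart, all control libraries of Rhox5 lay above those of Fndc1 and Hsd11b1, and those of Pnp2 above those of Hsd11b1. When the longest transcript replaced the exon union as the length, Hsd11b1 came to 33.6 and Fndc1 to 29.5 CPM per kilobase, and both then stood above Rhox5.

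Below these, Mfsd2a (6.96 CPM per kilobase), Mfap4 (6.61), Sh3tc2, which serves membrane recycling in Schwann cells (5.50), Ly6k, a surface protein anchored by lipid (4.52), and the protease inhibitor Serpina3n (3.27) were followed by Olfml1, Rcsd1, Abca8b, Bmx and Fxyd6, at 1.07 to 2.05 CPM per kilobase, and by Dlg2, Apcdd1, Sucnr1, Fmo1, Msc and Aspg, at 0.148 to 0.984. At the bottom, 6030408B16Rik had 2 to 21 counts per library and entered the Tbx20 KD comparison alone. Rasgef1c had 1 to 8 counts, Pigz 0 to 7 and Wfdc18, a whey acidic protein, 0 to 9, and none of the 3 passed the filter on low counts. Oas1f, an oligoadenylate synthetase, had 2 counts in control library c and 0 in the other 8 libraries. A count of 0 allows up to 3 counts, or 0.0715 to 0.0961 CPM over the libraries, for counting error only. Wfdc18 had 7, 4 and 6 counts in control, 0, 3 and 1 in Gata4 KD and 9, 2 and 3 in Tbx20 KD, with no overlap between control and Gata4 KD. In a fit without the filter its adjusted p in that comparison was 0.696 (unadjusted p 0.0435), and none of these 4 genes was called in any comparison.

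**Figure D1:**
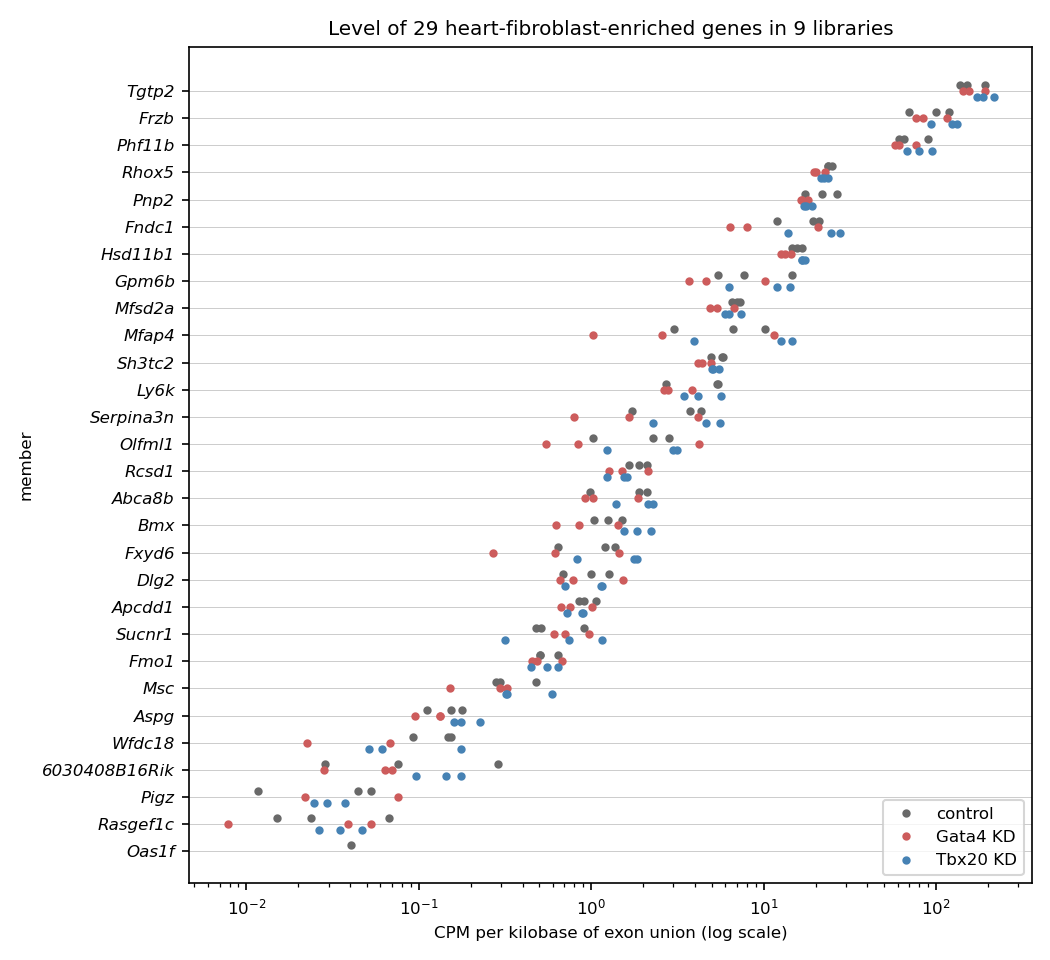
CPM per kilobase of exon union (x axis, log scale) for the 29 members found in the table (y axis, in order of control level), with 1 point per library, coloured by group, and 3 libraries a group; libraries at 0 are not drawn. Levels run from 161 CPM per kilobase for Tgtp2 down to members with single counts, and the points of Mfap4, Olfml1, Serpina3n and Fxyd6 spread more widely than those of Rhox5 or Hsd11b1.

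As a check of the name, the members were set beside genes that the study's arrays had assigned to fibroblasts of other organs. Of the 29 members, 22 (75.9%) had at least 1 CPM in control, as did all 11 other eHF genes. The share was 45.5% of 99 liver genes, 44.7% of 38 gonad genes, 37.8% of 45 skin genes, 36.5% of 52 lung genes and 29.2% of 96 kidney genes. Summed levels in control did not follow these shares. They were 1110 to 1620 CPM for the members and 2270 to 2880 CPM for the other eHF genes. Gonad genes summed to 2760 to 3100 CPM and skin genes to 1530 to 2060 CPM. Liver genes came to 382 to 415, kidney genes to 304 to 333 and lung genes to 202 to 205 CPM. These shares and sums are a description, and the lists differ in length.

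Before the groups are compared, the spread within groups has to be given, because it differed greatly from member to member. For Mfap4, values in control libraries a, b and c were 12.7, 19.6 and 5.80 CPM, those in Gata4 KD 4.92, 1.97 and 22.2 CPM, and those in Tbx20 KD 7.54, 24.1 and 28.0 CPM. The spread inside Gata4 KD was thus 11.2-fold, and it covered the whole range of the controls. Olfml1, an olfactomedin-domain protein, followed the same order with 3.86, 4.77 and 1.73 CPM in control, 1.41, 0.917 and 7.13 CPM in Gata4 KD and 2.09, 5.06 and 5.31 CPM in Tbx20 KD. Fndc1 did so at a higher level, with 191, 206 and 119 CPM in control, 79.2, 62.9 and 206 CPM in Gata4 KD and 138, 244 and 275 CPM in Tbx20 KD. Gpm6b was at 43.1, 81.9 and 30.3 CPM in control, 25.8, 20.6 and 56.8 CPM in Gata4 KD and 35.5, 79.3 and 66.7 CPM in Tbx20 KD. In each of these 4 genes, of which Mfap4 and Olfml1 were picked out after their values were seen, control c was the lowest control, Gata4 KD c stood far above Gata4 KD a and b, and Tbx20 KD a was below Tbx20 KD b and c. At the lowest count of Mfap4, 71, counting error alone would give an SD of 0.17 on the log2 scale, against 1.28 within groups.

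This order of libraries ran through much of the list. Of the 24 members tested in all 3 comparisons, 14 (58.3%) were lowest in control c, highest in Gata4 KD c and lowest in Tbx20 KD a within their groups, while 13.9% of 14268 genes were. The order was read from the values themselves, and without the 4 genes just described the count was 10 of 20. The exact reverse held for 0 members and for 13.4% of genes. The within-group SD of log2 CPM had a median of 0.36 among these members and of 0.15 among all genes, and exceeded 0.5 for 9 of 24 members (37.5%) against 5.19% of genes. The 9 were Mfap4, Olfml1, Serpina3n, Fxyd6, Gpm6b, Fndc1, Sucnr1, Abca8b and Dlg2, which include secreted, membrane and scaffold proteins. A wide spread was not particular to the members. In the gene lists of other organs the median SD ran from 0.27 (gonad) to 0.36 (kidney), with 13.6% (gonad) to 24.1% (lung) above 0.5. The median was 0.39 for leukocyte markers and 0.17 for the other eHF genes. Genes were not matched for level. At the other end, Rhox5 (SD 0.08), Hsd11b1 (0.08) and Sh3tc2 (0.11) varied less than the median gene. Tbx20, at 670, 518 and 904 CPM in Gata4 KD and with the other values given above, had the same order of libraries. In Hsd11b1 the highest and lowest library of a group differed by at most 1.14-fold.

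Other gene lists moved with this order. Of 14 fibroblast markers 9 had it, and of 17 genes of elastic fibres and microfibrils 9 did, while 0 of 12 cell cycle genes had it and 8 of the 12 had its reverse. The cell cycle genes, a list added after the values were seen, summed to 1160, 1100 and 1240 CPM in control a, b and c, to 1240, 1230 and 917 CPM in Gata4 KD and to 1360, 1050 and 1040 CPM in Tbx20 KD. Endothelial markers summed to 42.7 to 63.5 CPM in control, 44.1 to 64.2 CPM in Gata4 KD and 47.5 to 61.3 CPM in Tbx20 KD, with 3 of 11 in this order, and leukocyte markers, with 2 of 10, to 42.7 to 50.4, 27.2 to 44.6 and 41.4 to 60.2 CPM. By total count, control c was the shallowest control (32706062) and Tbx20 KD a the deepest Tbx20 KD library (41950397). Gata4 KD c (36299261) was barely deeper than Gata4 KD b (36218376), and Gata4 KD a was at 32622369. Depth thus ran with this order in control and against it in Tbx20 KD, and was almost equal in Gata4 KD b and c. The part of any of these in the spread of the members was not tested.

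**Figure D2:**
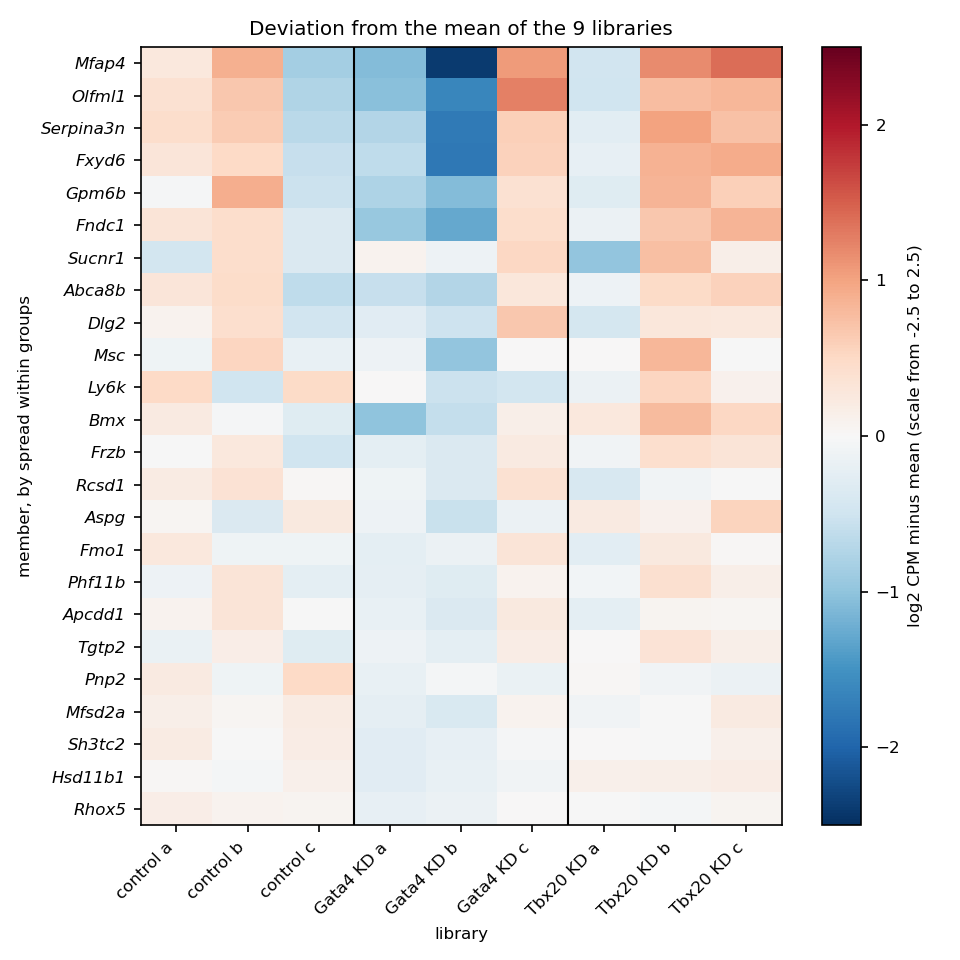
Log2 CPM of each of 24 members (y axis, from the widest to the narrowest spread within groups) in each of 9 libraries (x axis), less the member's mean over the 9; red is above and blue below that mean. The upper rows are blue in control c, Gata4 KD a and b and Tbx20 KD a and red in control b, Gata4 KD c and Tbx20 KD b and c, while the rows of Hsd11b1 and Rhox5 at the bottom are pale throughout.

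Gata4 KD was compared with control, to ask which members change when Gata4 is lowered. Of 24 members tested, 0 passed an adjusted p of 0.05 in edgeR's quasi-likelihood test, where 0.380% of 14468 genes did, and the smallest adjusted p was 0.462. An unadjusted p under 0.05 was found for 3 members, Sh3tc2, Hsd11b1 and Pnp2, against 8.54% of genes, and the groups did not overlap for 3 members, against 14.0% of genes. DESeq2, an exact test and limma-voom also called 0. The estimate was below 0 for 21 of 24 members and for 54.1% of genes, with a median log2 fold change of -0.30 over the members and -0.02 over all genes. Without Gata4 KD c the median was -0.42, with 14 of 24 members and 10.8% of genes at an unadjusted p under 0.05 and 0 members called, and without Gata4 KD b it was -0.15.

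Among the enzymes, Hsd11b1 was at 66.0, 62.3 and 71.2 CPM in control and at 53.6, 56.9 and 61.2 CPM in Gata4 KD. All Gata4 KD libraries lay below all controls, and the log2 fold change was -0.22 (SE 0.09, p 0.0391, adjusted p 0.545 in edgeR). Pnp2, which splits purine nucleosides, was at 34.7, 27.6 and 42.1 CPM in control and 26.2, 28.8 and 26.6 CPM in Gata4 KD, where the groups overlapped through control b (log2 fold change -0.36, SE 0.15, adjusted p 0.553). Fmo1, a flavin monooxygenase, was at 3.47 ± 0.524 and 3.40 ± 0.780 CPM (SD, n = 3). In the group of receptors, kinases and signalling proteins, Sh3tc2 had 33.6, 28.8 and 33.3 CPM in control and 24.1, 25.3 and 28.7 CPM in Gata4 KD. Its groups did not overlap, by a margin of less than 1 CPM, and its log2 difference of -0.30 (SE 0.11) had an adjusted p of 0.462, and its unadjusted p of 0.0236 was the smallest of the list. Of 12 Schwann and glial markers 6 were tested, with all 6 estimates below 0 and 0 called, and they summed to 23.3 to 23.8 CPM in control and 19.8 to 22.2 CPM in Gata4 KD. The defining marker Sox10 was at most 0.0314 CPM in any library. Of the others in this group Bmx (-0.39, SE 0.30) and Rcsd1 (-0.21, SE 0.19) had estimates below 0 and Sucnr1 (0.27, SE 0.32) and Dlg2 (0.01, SE 0.33) above.

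The transcription factors were measured with unequal precision. Rhox5 was at 18.8, 17.9 and 17.7 CPM in control and 14.7, 15.2 and 17.1 CPM in Gata4 KD, again without overlap (log2 fold change -0.21, SE 0.10, adjusted p 0.634), and its 95% interval reached from -0.44 to 0.01. Msc, a bHLH repressor of myogenesis, had 14 to 48 counts per library and an interval from -1.28 to 0.38. Among transporters and membrane proteins all 5 estimates were below 0. Mfsd2a, which carries lysophospholipids into cells, was at 15.8, 14.7 and 16.4 CPM in control and 12.1, 11.0 and 15.1 CPM in Gata4 KD (log2 fold change -0.30, SE 0.14, adjusted p 0.623), with Gata4 KD c inside the range of the controls. Ly6k had 4.53, 2.26 and 4.45 CPM in control and 3.196, 2.19 and 2.31 CPM in Gata4 KD, so control b overlapped the knockdown. Gpm6b (-0.59, SE 0.44), Fxyd6, a modulator of the sodium pump (-0.46, SE 0.53), and the lipid transporter Abca8b (-0.38, SE 0.33) had intervals that reach below -1, a change of 2-fold downwards.

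The matrix and Wnt modulators had estimates from -0.57 (SE 0.42) for Fndc1 to -0.06 (SE 0.21) for Frzb, with Mfap4 at -0.38 (SE 0.76), Apcdd1 at -0.22 (SE 0.17) and Olfml1 at -0.12 (SE 0.70). Frzb was at 322, 385 and 227 CPM in control and 272, 249 and 375 CPM in Gata4 KD. These overlapped fully, and its estimate lay above 0 when control b, Gata4 KD a or Gata4 KD b was left out. Serpina3n, the one protease inhibitor tested, had a log2 fold change of -0.56 (SE 0.55). For Tgtp2 the values were 447, 565 and 404 CPM in control and 459, 422 and 567 CPM in Gata4 KD, and for Phf11b 77.1, 106 and 72.01 CPM and 72.2, 68.5 and 90.5 CPM, and in both the groups overlapped. The intervals of Mfap4 (-2.12 to 1.35) and Olfml1 (-1.73 to 1.48) reach past 2-fold in both directions. In the same comparison the cardiomyocyte marker Tnnt2 and the mesothelial marker Lrrn4 were called, both lower in Gata4 KD (log2 fold changes -1.64, SE 0.13, and -3.38, SE 0.27, adjusted p 0.00272 each). Lrrn4 was the 1 call among 9 epicardial and mesothelial markers tested, of which 5 had estimates below 0 and 4 above (median -0.64). Of the 9, 6 had an unadjusted p under 0.05 in edgeR, against 8.54% of genes. For 6 the groups did not overlap, 4 lower and 2 higher in Gata4 KD, against 14.0% of genes. Cardiomyocyte markers, of which 3 of 12 were tested and Myh6 was at most 0.0313 CPM, summed to 27.8 to 34.1 CPM in control and 10.8 to 12.3 CPM in Gata4 KD. Most of these sums was Tnnt2 itself, at 23.1 to 29.9 CPM in control and 7.73 to 8.84 CPM in Gata4 KD. Epicardial and mesothelial markers summed to 97.2 to 118 CPM in control and 100 to 158 CPM in Gata4 KD. The part of either list in the members' values was not tested.

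Tbx20 KD was set against the same control libraries. Of 25 members tested 0 passed, as compared with 0.00687% of 14547 genes, a single gene, and the smallest adjusted p was 0.9997. DESeq2, the exact test and limma-voom called 0 as well. An unadjusted p under 0.05 was found for 2 members, Bmx and Rcsd1, against 2.69% of genes, and the same 2 were the members without overlap, against 6.96% of genes. The estimate was below 0 for 8 of 25 members and 50.7% of genes, and the median was 0.20 against -0.002 over all genes. It was 0.36 without control b and 0.04 without Tbx20 KD b.

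Bmx was at 4.64, 3.87 and 3.23 CPM in control and at 4.77, 6.91 and 5.74 CPM in Tbx20 KD. The lowest Tbx20 KD library stood only just above the highest control, and the log2 fold change was 0.57 (SE 0.19, p 0.0152). Rcsd1, a protein that binds the actin capping factor CapZ, was at 19.1, 21.4 and 16.8 CPM in control and 12.5, 15.6 and 16.3 CPM in Tbx20 KD, again with a narrow gap (log2 fold change -0.36, SE 0.13, p 0.0241). Pnp2, at 30.4, 28.1 and 27.1 CPM, overlapped control through control b (log2 fold change -0.28, SE 0.14). Tgtp2 was at 506, 635 and 553 CPM (0.26, SE 0.14) and Frzb at 302, 429 and 403 CPM (0.29, SE 0.20), both overlapping control. Hsd11b1, at 70.6, 71.4 and 73.5 CPM, had a 95% interval from -0.06 to 0.29, one of the narrowest in the list, and Rhox5, at 16.8, 16.3 and 17.8 CPM, one from -0.28 to 0.10. These intervals are far narrower than those of Mfap4 (-0.53 to 1.82) or Gpm6b (-0.64 to 1.10).

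**Figure D3:**
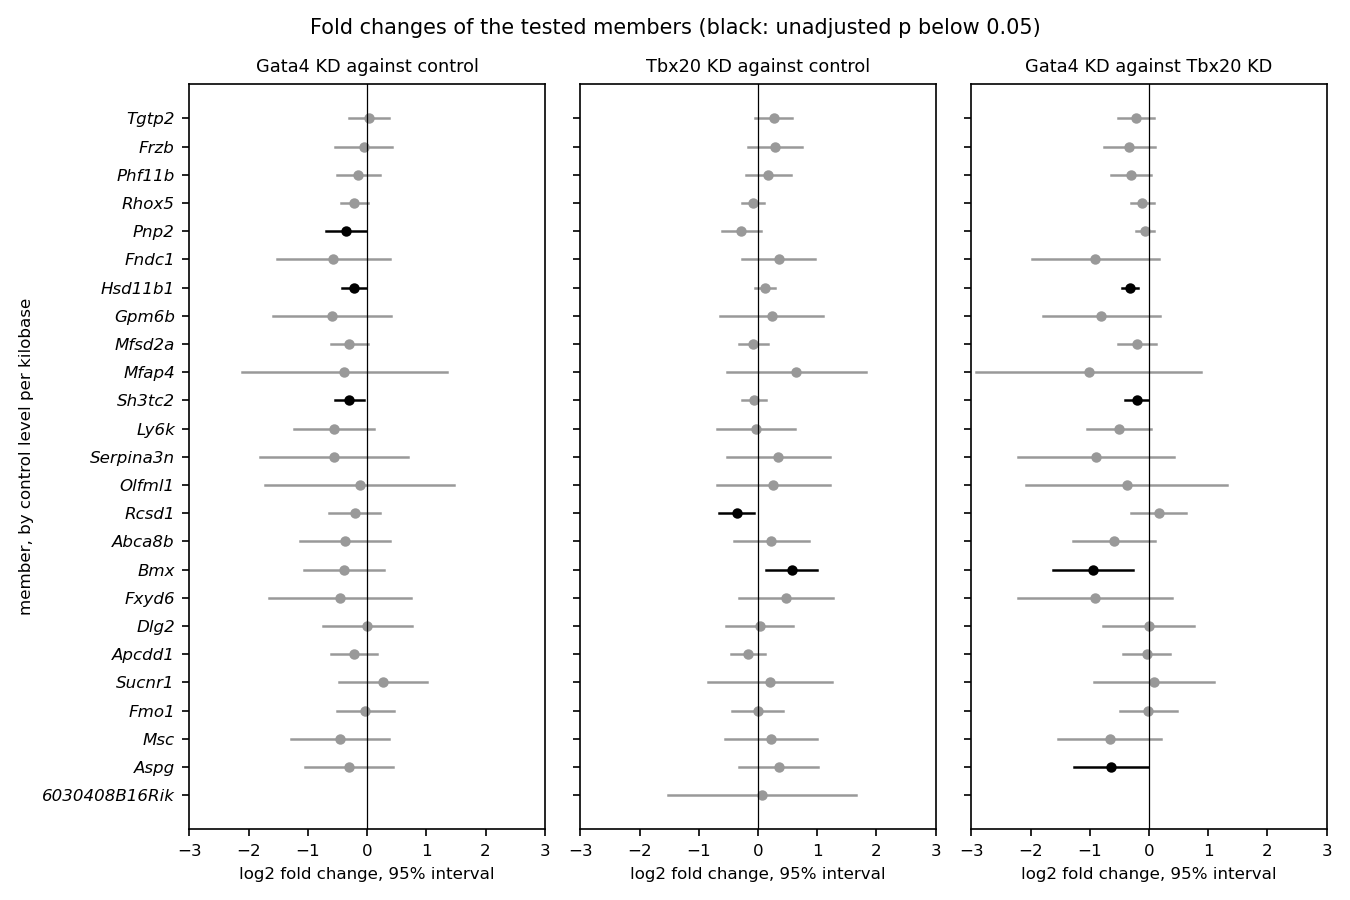
Log2 fold changes (points) and 95% intervals (lines) of the tested members in each comparison, fitted by edgeR on 6 libraries, with members ordered by control level per kilobase; black marks an unadjusted p below 0.05, which 3, 2 and 4 members reached. In the left and right panels 21 and 22 of 24 points lie below 0, and intervals are narrow for Hsd11b1, Rhox5 and Sh3tc2 and wide for Mfap4 and Olfml1.

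Gata4 KD was then compared with Tbx20 KD directly, without the control libraries. Here too 0 of 24 members passed in edgeR's quasi-likelihood test, against 1.44% of 14477 genes, and the smallest adjusted p was 0.0522, for Hsd11b1. Members with an unadjusted p under 0.05 were Hsd11b1, Bmx, Sh3tc2 and Aspg, 4 in all against 16.7% of genes, and the same 4 had groups that did not overlap, against 23.1% of genes. The estimate was below 0, meaning lower in Gata4 KD, for 22 of 24 members and 51.7% of genes, and the median was -0.33 against -0.01 over all genes. The shares with a low p or without overlap are near or below those of all genes. As most members share the library order described above, their estimates do not count as independent.

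Hsd11b1 averaged 57.2 ± 3.81 CPM in Gata4 KD and 71.8 ± 1.52 CPM in Tbx20 KD (SD, n = 3), with the highest Gata4 KD library at 61.2 and the lowest Tbx20 KD library at 70.6 CPM. The log2 difference was -0.32 (SE 0.06), with a 95% interval from -0.46 to -0.18, a level 20.1% lower in Gata4 KD. The control mean, 66.5 ± 4.48 CPM, lay between, and the controls overlapped Tbx20 KD. Under 15 alternatives the adjusted p ran from 0.00118 to 0.237 and was below 0.05 in 5, among them DESeq2 (0.00118), the exact test (0.00238) and the fit without Gata4 KD c (0.0126). The log2 fold change moved little, from -0.38 to -0.28.

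Bmx was at 1.94, 2.61 and 4.40 CPM in Gata4 KD and 4.77, 6.91 and 5.74 CPM in Tbx20 KD. The groups did not overlap, with Gata4 KD c just below Tbx20 KD a, and the log2 difference of -0.94 (SE 0.29) had an adjusted p of 0.170. It was called by DESeq2 (adjusted p 0.031), by the exact test (0.048) and without Gata4 KD c (0.0177), within a range over the alternatives of 0.0177 to 0.468. For Sh3tc2 the values were 29.6, 29.05 and 31.9 CPM in Tbx20 KD, just above Gata4 KD (log2 fold change -0.21, SE 0.08, adjusted p 0.252). Aspg, an asparaginase, was near the detection limit, at 0.470, 0.333 and 0.468 CPM in Gata4 KD, 0.617, 0.565 and 0.795 CPM in Tbx20 KD and 0.540, 0.396 and 0.627 CPM in control, on 12 to 32 counts (log2 fold change -0.64, SE 0.27, adjusted p 0.286). Ly6k, at 2.87, 4.68 and 3.45 CPM in Tbx20 KD, overlapped Gata4 KD (-0.51, SE 0.23). Phf11b, at 80.7, 112 and 93.8 CPM, did so as well (-0.31, SE 0.15), as did Mfsd2a at 13.5, 14.3 and 16.6 CPM (-0.21, SE 0.14). Within Gata4 KD, 21 of 24 members and 37.7% of genes were highest in library c, so leaving it out lowers the estimates of most members. Without it, 5 members were called (Hsd11b1, Bmx, Fndc1, Gpm6b and Abca8b), as were 801 of 14656 genes. All 25 members tested then had estimates below 0, with a median of -0.47 against -0.009 over all genes. Leaving out any other single library gave 0 called members.

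**Figure D4:**
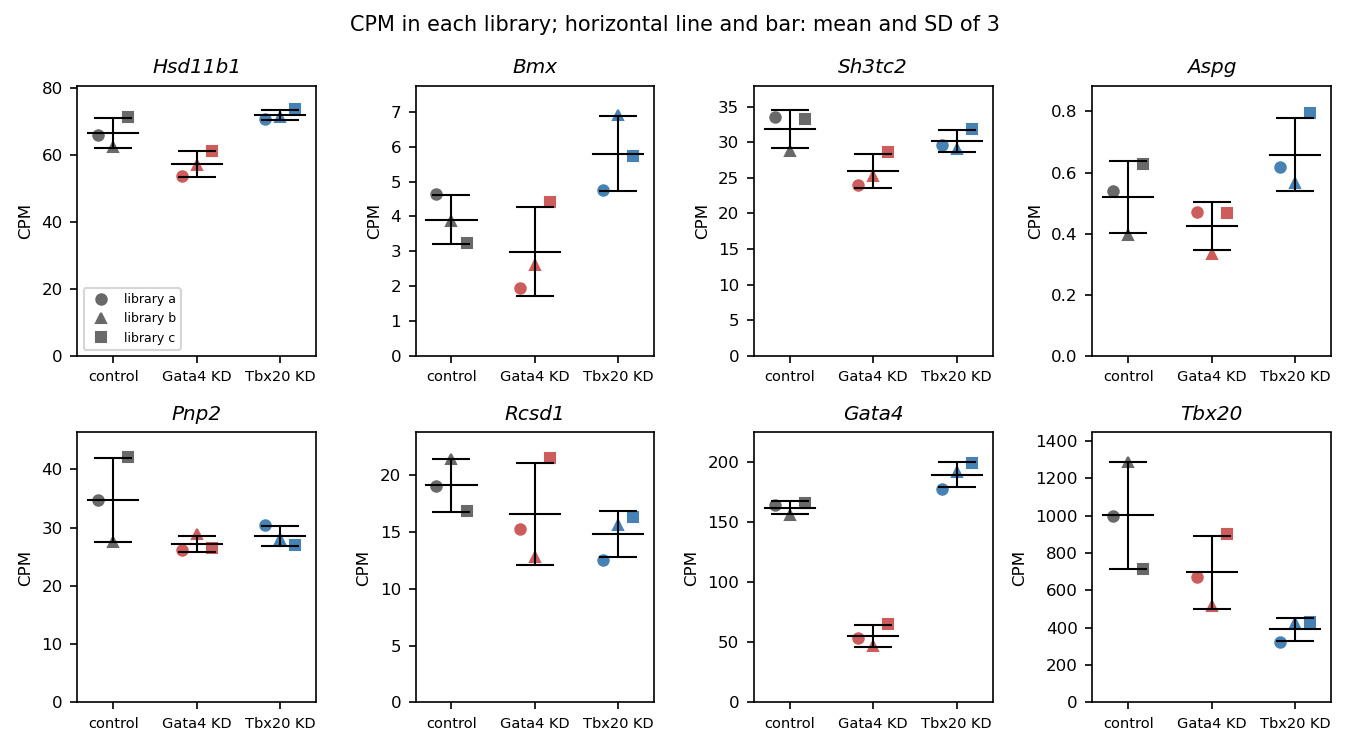
CPM (y axes, from 0) in each library of control, Gata4 KD and Tbx20 KD for 6 members and for the targets Gata4 and Tbx20; symbols mark libraries a, b and c, and the horizontal line and bar are the mean and SD of 3. Hsd11b1 sits at 53.6 to 61.2 CPM in Gata4 KD and 70.6 to 73.5 CPM in Tbx20 KD with the control mean of 66.5 CPM between, and Bmx is spread more widely in Gata4 KD than in the other groups.

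Tgtp2 needs separate mention, because 81.4% of its 75-base windows also occur in its neighbour Tgtp1 and the counts of the pair depend on how shared reads were divided. Tgtp1, which is no member, was higher in Gata4 KD, at 281, 274 and 311 CPM against 160, 188 and 171 CPM in control (log2 fold change 0.74, SE 0.09, adjusted p 0.0245). Summed, the pair was at 606, 753 and 575 CPM in control, 741, 696 and 877 CPM in Gata4 KD and 688, 855 and 722 CPM in Tbx20 KD. The sums of control and both knockdowns overlapped, and Tgtp2 took 70.2 to 75.0% of them in control, 60.6 to 64.6% in Gata4 KD and 73.5 to 76.6% in Tbx20 KD. Phf11b (26.8% of windows shared) and Pnp2 (21.3%, with Pnp) carry the same uncertainty in a smaller degree, and the other 26 members share under 5%.

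The lists below are set beside the shares of all genes tested in Gata4 KD against control, Tbx20 KD against control and between the knockdowns. In that order, 8.54%, 2.69% and 16.7% of genes had an unadjusted p under 0.05 in edgeR. Calls were made for 0.380%, 0.00687% and 1.44% of genes, and estimates lay below 0 for 54.1%, 50.7% and 51.7%. For glucocorticoid activation and response, 14 of 17 genes were tested beside Hsd11b1. In Gata4 KD against control edgeR called 0, with 3 at an unadjusted p under 0.05, 9 estimates above 0 and a median of 0.04, and in Tbx20 KD it called 0, with 0 at an unadjusted p under 0.05, 13 estimates below 0 and a median of -0.09. Against Tbx20 KD, Errfi1, a feedback inhibitor of EGF receptor signalling, was the single call, higher in Gata4 KD (log2 fold change 0.73, SE 0.10, adjusted p 0.0209). Of the 14, 6 had an unadjusted p under 0.05 and 12 had estimates above 0 (median 0.09), while that of Hsd11b1 was below. H6pd was at 161 ± 12.7, 169 ± 3.94 and 155 ± 7.73 CPM and the receptor gene Nr3c1 at 211 ± 47.3, 234 ± 5.73 and 239 ± 4.01 CPM in control, Gata4 KD and Tbx20 KD (SD, n = 3), while Hsd11b2, which inactivates the hormone, was at most 0.139 CPM in any library. Tsc22d3, a target of the receptor, was at 21.6 to 23.1 CPM in control, 23.3 to 24.4 CPM in Gata4 KD and 21.5 to 22.3 CPM in Tbx20 KD, and was not called (log2 fold change against control 0.10, SE 0.08, and -0.02, SE 0.07). Fkbp5, another target, had the opposite sign in Gata4 KD. It was at 32.1 ± 1.55, 30.1 ± 2.86 and 29.3 ± 2.01 CPM in control, Gata4 KD and Tbx20 KD. Its log2 fold changes against control were -0.10 (SE 0.10) and -0.13 (SE 0.08), and it was not called either.

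Of 33 Wnt pathway genes beside Frzb and Apcdd1, 27 were tested. Against control edgeR called 0 in either knockdown, with 5 (Gata4 KD) and 0 (Tbx20 KD) at an unadjusted p under 0.05 and medians of -0.08 and 0.01. Between the knockdowns 3 were called, the ligands Wnt5a (log2 fold change 0.42, SE 0.06, adjusted p 0.0251) and Wnt11 (0.97, SE 0.17, adjusted p 0.0449) and the receptor Fzd7 (0.46, SE 0.07, adjusted p 0.0292), all higher in Gata4 KD, with 7 of 27 at an unadjusted p under 0.05 and a median over the list of -0.02. Sfrp1, a decoy of the same family as Frzb, was at 179, 231 and 118 CPM in control, 116, 88.8 and 241 CPM in Gata4 KD and 135, 241 and 234 CPM in Tbx20 KD, the library order described above. Sfrp2, of the same family, did not have that order, as control a was its lowest control. It was at 3.51, 4.04 and 3.65 CPM in control, 2.1, 2.33 and 4.27 CPM in Gata4 KD and 2.59, 4.96 and 5.86 CPM in Tbx20 KD. Elastic fibre genes, beside Mfap4, had 0 of 17 called by edgeR in each comparison, with 2, 0 and 3 at an unadjusted p under 0.05 and medians from -0.04 to 0.02. Of 30 interferon-stimulated genes beside Tgtp2, Phf11b and Oas1f, Tgtp1 alone was called, in Gata4 KD against control and against Tbx20 KD, with 1 and 8 of the 30 at an unadjusted p under 0.05. In Tbx20 KD 28 of the 30 had estimates above 0, with a median of 0.09 and 0 at an unadjusted p under 0.05. The 11 other eHF genes, which include the target Tbx20, gave 1 call in Gata4 KD against control (Itga4), 0 in Tbx20 KD and 3 between the knockdowns (Itga4, Gucy1b1 and Col2a1). In the same order, 3, 3 and 7 of the 11 had an unadjusted p under 0.05 in edgeR. The groups did not overlap for 2, 1 and 5 of them, against 14.0%, 6.96% and 23.1% of genes. With its own edgeR fit the study reported more eHF genes as changed in each knockdown, Tbx20 in both. The fit used here did not call even the target Tbx20 in Tbx20 KD (adjusted p 0.748 in edgeR), so the 0 does not show that eHF genes were unchanged.

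Promoters of the members were searched for the motifs of the targeted factors in the 250 bases before each RefSeq start on GRCm38.p6, on both strands and with overlapping matches counted. The letters searched for GATA factors were AGATAA and TGATAA, with the variants AGATAG and, likewise, TGATAG. Those for T-box factors were AGGTGT. Entries existed for 20 members, and a gene with several starts counted once. GATA spellings were found for 5 of 20 members (25.0%), Bmx, Dlg2, Frzb, Serpina3n and Tgtp2, and for 29.7% of 27025 genes. The T-box letters were found for 2 (10.0%), Frzb and Rasgef1c, and for 13.6% of genes. Hsd11b1 had neither in this window. The stretches below are those of the members given in full above that held a match and, for Bmx and Tgtp2, overlapped no annotated exon. They are on the strand of the gene, with the matched letters in capitals.
Bmx, chrX:164258194-164258443, minus strand: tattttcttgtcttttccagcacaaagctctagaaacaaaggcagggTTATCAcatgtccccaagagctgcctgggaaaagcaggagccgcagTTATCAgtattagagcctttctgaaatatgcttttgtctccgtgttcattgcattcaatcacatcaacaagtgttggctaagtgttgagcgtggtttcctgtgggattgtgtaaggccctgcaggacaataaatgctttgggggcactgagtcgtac
Tgtp2, chr11:49064213-49064462, minus strand: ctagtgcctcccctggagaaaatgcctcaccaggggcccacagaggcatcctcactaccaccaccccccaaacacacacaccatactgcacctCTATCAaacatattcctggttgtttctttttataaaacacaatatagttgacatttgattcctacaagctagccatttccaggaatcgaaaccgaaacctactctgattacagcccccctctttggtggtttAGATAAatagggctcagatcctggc
Frzb, T-box, chr2:80447556-80447585, minus strand: tggagtggggaaAGGTGTgcggctcctgtc
Frzb, GATA, chr2:80447511-80447540, minus strand: ctacagcatcacAGATAGacagggtctcac
In Bmx both matches are the reverse complement of TGATAA, starting 203 and 157 bases before the start. In Tgtp2 a match on the opposite strand starts 157 bases and one on the gene's own strand 25 bases before it. Frzb was the one member with both motifs (5.0% of members and 4.84% of genes), 177 and 132 bases before its RefSeq start. Its 250-base stretch overlapped an annotated exon of Frzb itself. In GENCODE M21 the gene begins further upstream, at chr2:80447625, so both printed windows lie inside the annotated gene. The matched stretch of Rasgef1c likewise overlapped an exon of Rasgef1c. The matches describe the letters of these windows and not sites bound in these cells.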

How the data were processed

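The table deposited by the authors holds expected counts per gene from RSEM, not normalized and kept as whole numbers. Stranded single-end reads of 75 bases were trimmed and aligned with Bowtie2 to GRCm38 according to the study's methods; the submitters' processing notes name Bowtie, RSEM and the build mm9, and coordinates printed here are those of GENCODE M21 on GRCm38. RSEM divides reads shared by similar genes. All columns belonged to the 9 libraries, which were grouped by the guide RNA in the labels. The study calls the libraries of a condition biological replicates, but nothing in the labels names separate animals, so p-values measure the spread between libraries.

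Each comparison was fitted on its 6 libraries in R 4.3.3 with edgeR 4.0.16 (filterByExpr, TMM, quasi-likelihood F test, Benjamini-Hochberg over all genes tested, threshold 0.05), with no covariate. SEs are the log2 fold change divided by the square root of F. With 3 against 3 libraries an exact permutation test of a single value cannot go below 0.1, so none was made. Levels are CPM, or log2 CPM with a prior count of 2. Length is the union of annotated exons. Members with an unadjusted p among the 5 smallest of a comparison, and the 8 with the highest level per length, are given in full. The procedure was tested on simulated counts. Alternatives were DESeq2 1.42.0, limma-voom (limma 3.58.1), an exact test, library size alone, no filter or CPM above 1 in at least 2 libraries, one fit of all 9 libraries, a block for the replicate letter, each library left out, and, added later, a covariate from the first component of deviations from group means. The members, lists and tests were chosen with earlier results of these data known.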

Additional observations from a re-analysis of the deposited data

How the results depend on the processing

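The count of members called stayed at 0 under all 15 alternatives for Tbx20 KD against control and under 14 of 15 for Gata4 KD against control, where the component covariate gave 1 (Pnp2, adjusted p 0.038, in a range of 0.038 to 1.0). Between the knockdowns it stayed at 0 under 10 of 15, and was 2 with DESeq2, 2 with the exact test, 1 with no filter on low counts, 3 with the component covariate, and 0 to 5 with 1 library left out, the 5 without Gata4 KD c. The cause was not tested. The median over the members ranged with 1 library left out from -0.42 to -0.15 in Gata4 KD and from 0.04 to 0.36 in Tbx20 KD against control, and from -0.47 to -0.22 between the knockdowns.

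Among the members given in full, estimates changed sign in some fits that left out 1 library. In Gata4 KD against control these ran from -0.24 to 0.11 for Frzb, from -0.26 to 0.0365 for Phf11b and from -0.081 to 0.17 for Tgtp2. In Tbx20 KD they ran from -0.0353 to 0.72 for Gpm6b and from -0.30 to 0.13 for Ly6k, which was at 0.00212 with the component covariate, and between the knockdowns from -0.083 to 0.32 for Rcsd1. Where the sign changed, the adjusted p was 0.748 or higher.

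Libraries with the same letter did not deviate together in a steady way (correlations across genes of -0.165 to 0.251), so the letters were not taken as pairs. With the replicate block, 0 members were called in each comparison. All genes called in Gata4 KD against control, Tbx20 KD against control and Gata4 KD against Tbx20 KD then numbered 5, 2 and 101, against 55, 1 and 208 without it. Of all genes, in the same order of comparisons, DESeq2 called 273, 10 and 761, the exact test 250, 8 and 729, no filter 121, 2 and 324, and the component covariate 446, 5 and 627; one fit of all libraries gave 148 in Gata4 KD against control, and leaving out 1 library gave 6 to 189, 1 to 5 and 22 to 801. The component, a covariate chosen after seeing the data, held 33.7% of the variance of deviations from group means. With the longest transcript as length, 11 of 29 levels per kilobase moved by more than 1 SD. Against control, the unadjusted 95% intervals of Hsd11b1 and Rhox5 lay within 1.5-fold, while those of Mfap4 and Olfml1 reached past 2-fold.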
